A study of Mus musculus with 33 samples.

Results

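The expression of 10 genes of the endoplasmic reticulum (ER) stress and ATF4 response was examined in mouse liver. The genes were Hspa5, Dnajb9, Sdf2l1, Herpud1, Xbp1, Creb3l3, Atf4, Ddit3, Trib3 and Asns. The rule that selects them uses names and no measured value; they were matched by gene name in the deposited normalized table and by Ensembl identifier in the deposited count table, which holds 25988 genes. All 10 were found in the count table. Asns was not in the normalized table and had too few counts to be tested, so that 9 of the 10 were among the 10179 genes tested. Liver RNA had been sequenced from the 3' end (QuantSeq) in 33 libraries of male C57BL/6J mice aged 13 to 18 weeks, the age given by the labels and, in the study's methods, that at infection with the shRNA. The study asked how lowering ChREBP, the glucose-sensitive transcription factor encoded by Mlxipl, alters the liver in glycogen storage disease type Ia, in which the glucose-6-phosphatase gene G6pc is lost. shChREBP/L-G6pc-/- mice, which lost G6pc and received shChREBP, gave 9 libraries. The other groups gave 8 each: shSCR/L-G6pc-/- mice lost G6pc and received the scrambled hairpin, shChREBP/L-G6pc+/+ mice kept G6pc and received shChREBP, and shSCR/L-G6pc+/+ mice kept G6pc and received the scrambled hairpin. All mice carried floxed G6pc alleles, and all had received tamoxifen and an AAV that expressed a short hairpin RNA, either shChREBP against Mlxipl or the scrambled shSCR. L-G6pc-/- mice also carried a tamoxifen-inducible Cre driven by the albumin gene, which acts in hepatocytes, whereas L-G6pc+/+ mice were Cre-negative littermates that kept G6pc. Livers were collected in the nonfasted state at the shorter of the study's follow-up times. Whether every library is a separate mouse is not given in the labels, so n counts libraries, and the p-values measure the spread between these libraries. Libraries are numbered s1 to s33 as in the labels.

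Proteins that fold poorly in the ER activate 3 sensors, IRE1, PERK and ATF6, which together drive the unfolded protein response. IRE1 splices Xbp1 mRNA so that it encodes an active transcription factor, ATF6 is released to the nucleus by proteolysis, and both raise ER chaperones and components of ER-associated degradation. PERK phosphorylates eIF2α, which slows translation in general but favours that of ATF4, and ATF4 in turn induces CHOP (Ddit3), Trib3 and genes of amino acid supply such as Asns. Other eIF2α kinases reach ATF4 too, so this arm also responds to amino acid shortage, viral infection and heme deficiency. In hepatocytes, which secrete most plasma proteins, the ER-bound factor CREB-H (Creb3l3) controls lipid and acute-phase genes. Counts of 3' ends do not separate spliced from unspliced Xbp1 and do not show how much ATF4 is translated.

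The promoters of the genes were searched, as sequence background to the responses measured here, for 5 motifs on both strands in windows of 300 bases (250 before and 50 from the RefSeq start site onward, GRCm38.p6). The motifs were the ER stress response element ERSE (CCAAT, 9 bases of any kind, then CCACG), ERSE-II (ATTGG, 1 base of any kind, then CCACG), the ATF6-type site TGACGTG, the composite C/EBP-ATF site TGATGNAA through which ATF4 acts, and the E box CACGTG, the core that ChREBP and many other factors recognise. Their letters can overlap, since an ERSE may end within an E box or an ATF6-type site. All 10 genes matched, with 11 promoters because Creb3l3 has 2. Hspa5 was the only one of the 10 genes with an ERSE, 65 to 47 bases before the start site, and it also held TGACGTG. Herpud1 was the only one with an ERSE-II, 52 to 42 bases before the start site, and it also held TGATGNAA on the minus strand. TGATGNAA was found in Trib3 and Asns as well, in Trib3 within the transcribed part, and CACGTG only in Dnajb9. Of all 32851 promoters of the table, 0.119% held an ERSE, 0.0365% an ERSE-II, 2.01% TGACGTG, 3.97% TGATGNAA and 7.15% CACGTG. These are matches of letters, not shown binding sites, and a window without a match says only that these letters are not in it. The promoters of Hspa5, the chaperone by which ER stress is usually read, and of Herpud1 and Trib3, whose counts differed between groups, are shown 5′ to 3′ along the gene with the matched motifs in capitals (Hspa5 chr2:34771840-34772139, plus strand; Herpud1 chr8:94386179-94386478, plus strand; Trib3 chr2:152344011-152344310, minus strand):
Hspa5: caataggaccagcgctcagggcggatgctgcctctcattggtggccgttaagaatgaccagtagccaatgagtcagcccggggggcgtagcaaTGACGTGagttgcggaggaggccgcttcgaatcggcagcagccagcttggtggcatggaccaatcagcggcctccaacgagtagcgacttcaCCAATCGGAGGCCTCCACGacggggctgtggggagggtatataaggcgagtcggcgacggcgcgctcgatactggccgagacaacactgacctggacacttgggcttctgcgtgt
Herpud1: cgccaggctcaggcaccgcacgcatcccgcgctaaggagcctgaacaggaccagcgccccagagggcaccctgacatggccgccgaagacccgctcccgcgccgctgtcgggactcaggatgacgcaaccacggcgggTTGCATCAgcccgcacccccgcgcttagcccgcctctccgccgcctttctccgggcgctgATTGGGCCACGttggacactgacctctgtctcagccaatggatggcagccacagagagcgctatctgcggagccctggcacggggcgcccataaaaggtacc
Trib3: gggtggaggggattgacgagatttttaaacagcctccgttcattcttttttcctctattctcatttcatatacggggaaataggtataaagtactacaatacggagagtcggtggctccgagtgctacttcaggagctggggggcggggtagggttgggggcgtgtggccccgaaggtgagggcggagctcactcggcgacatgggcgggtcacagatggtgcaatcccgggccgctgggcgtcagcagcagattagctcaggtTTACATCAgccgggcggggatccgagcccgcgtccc

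**Figure D1:**
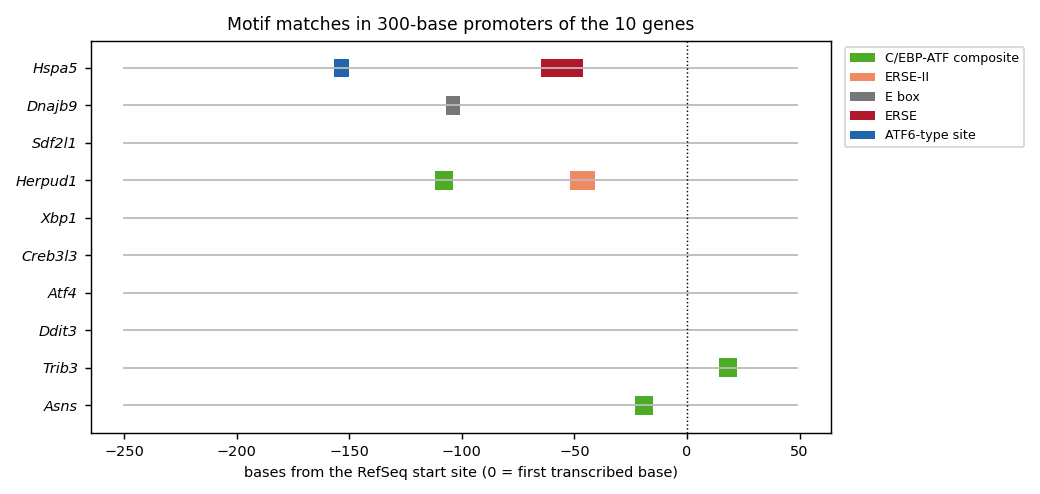
Motif matches in the 300-base promoters of the 10 genes. The horizontal axis is the distance in bases from the RefSeq start site, each grey line is a promoter (both Creb3l3 promoters share a line and held none) and each coloured bar a match. Matches lie in Hspa5, Dnajb9, Herpud1, Trib3 and Asns, and no match lies in the other 5 genes.

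Libraries held 1497843 to 3546852 counts (median 2141043). Mlxipl, the target of the hairpin, was at 216, 441 and 500.4 CPM (lowest, median and highest; reads per 1e6 counted, after TMM scaling) in shChREBP/L-G6pc-/- livers against 514, 578 and 633 CPM in shSCR/L-G6pc-/- livers, and at 292, 395 and 413 CPM in shChREBP/L-G6pc+/+ livers against 449, 528 and 612 CPM in shSCR/L-G6pc+/+ livers. The groups did not overlap in either genotype. The log2 fold change was -0.57 (edgeR adjusted p = 0.00417) in L-G6pc-/- and -0.55 (edgeR adjusted p = 0.0129) in L-G6pc+/+ livers. On the first principal component of all tested genes (14.7% of the variance), libraries s29, s30, s32 and s33 of shChREBP/L-G6pc-/- livers stood apart from the other 5 of their group, and Mlxipl was at 270, 263, 216 and 359 CPM in them, the lowest values of the group. Calls of the 10 genes and of the pathway lists that were lost without these 4 libraries are therefore named as such beside the result. Without them, the Mlxipl difference in L-G6pc-/- livers was -0.27 (edgeR adjusted p = 0.214). Only 5 libraries of the group then remain, so calls can be lost through fewer libraries or weaker knockdown, which cannot be told apart. In that fit 106 of all genes passed with shChREBP in L-G6pc-/- livers, beside 770 with all libraries. Between shChREBP/L-G6pc-/- and shSCR/L-G6pc+/+ livers 321 passed, beside 1347, and for the genotype under shChREBP 913, beside 1124. The counts of G6pc from the 3' end may include transcripts that lack the floxed part and so do not check the deletion. The labelled tissue was borne out by hepatocyte markers, whose 10 genes summed to 13079 to 36074 CPM over the libraries.

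Few of the 10 genes moved with either manipulation. Herpud1 was lower in L-G6pc-/- than in L-G6pc+/+ livers with either hairpin, Xbp1 was lower in L-G6pc-/- livers with shChREBP, and Trib3 was higher in shChREBP/L-G6pc-/- than in shSCR/L-G6pc+/+ livers. The master chaperone Hspa5, Atf4 itself and Creb3l3 passed no test. With shChREBP against shSCR, 0 of 9 genes passed edgeR's quasi-likelihood test (Benjamini-Hochberg adjusted p under 0.05 over all 10179 genes) in L-G6pc-/- livers, where 7.56% of all tested genes did. In this comparison 1 of the 9, Ddit3, had an unadjusted p under 0.05, beside 22.3% of all genes. There limma-voom, DESeq2 and limma on the deposited table also called 0. In L-G6pc+/+ livers 0 of 9 passed, against 5.39% of all genes, and 0 by each of the same 3 tools. At an unadjusted p under 0.05 there were 0, beside 21.5% of all genes. The difference between these shChREBP effects passed for 0 of 9 genes, against 0.0786% of all genes, again with 0 at an unadjusted p under 0.05 and 0 by the other tools. Between genotypes under shSCR, 1 of 9 passed (Herpud1, lower), against 3.23% of all genes. Between genotypes under shChREBP, a comparison added after the data had been seen and with no library in common with that under shSCR, 2 of 9 passed (Herpud1 and Xbp1, both lower), against 11% of all genes. Between shChREBP/L-G6pc-/- and shSCR/L-G6pc+/+ livers 2 of 9 passed (Trib3 higher, Herpud1 lower), against 13.2% of all genes. The median log2 fold change of the 9 genes was -0.095 with the hairpin in L-G6pc-/-, 0.13 with the hairpin in L-G6pc+/+ and -0.19 between genotypes under shSCR, beside 0.0063, 0.026 and 0.0021 over all tested genes.

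**Figure D2:**
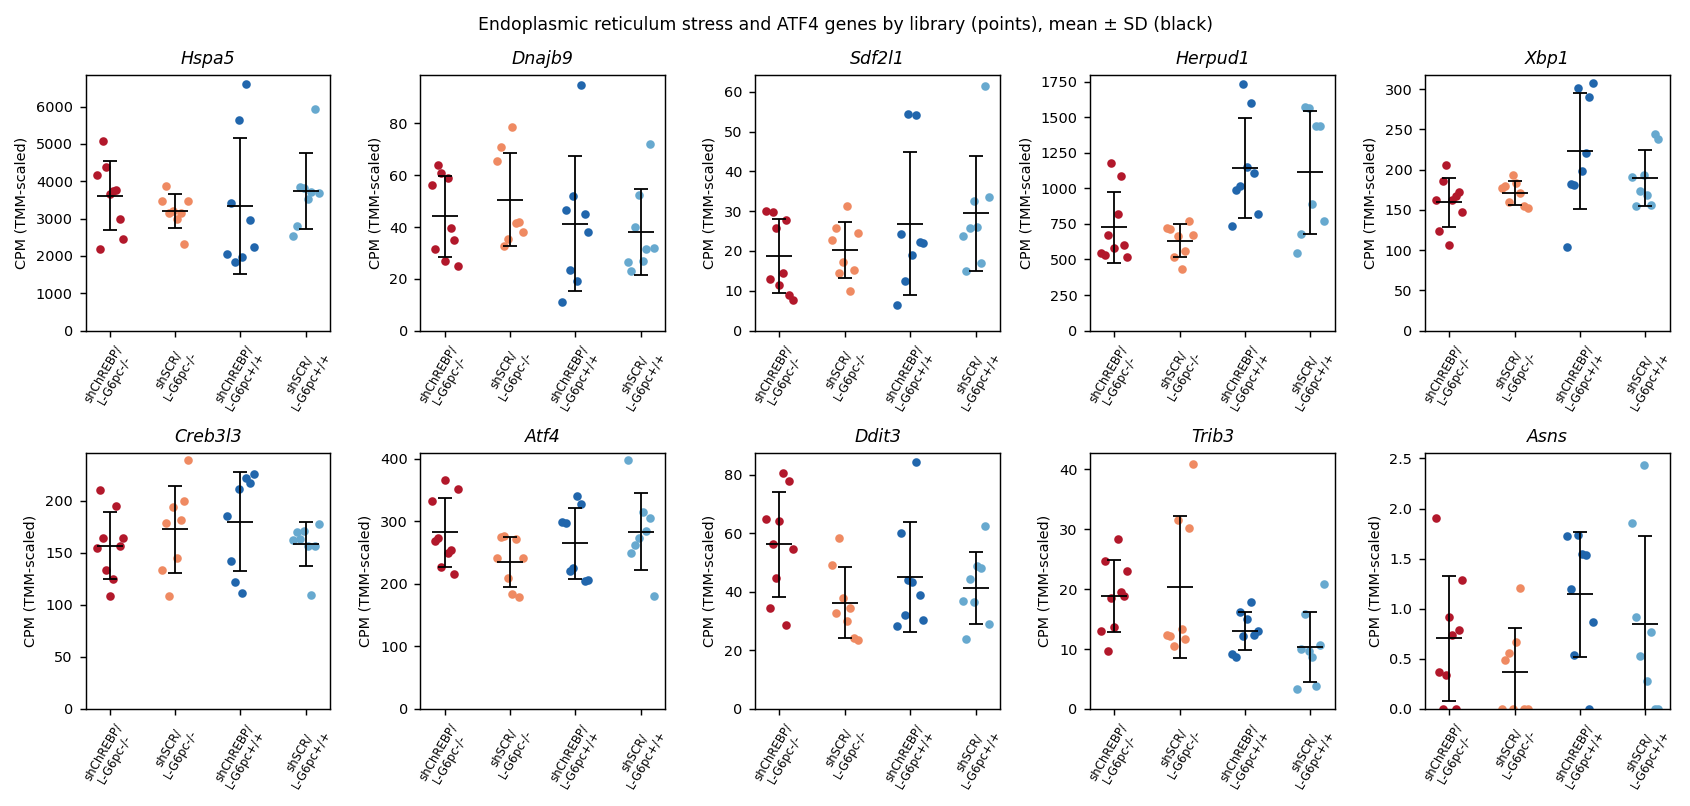
CPM of the 10 genes in each of the 33 libraries. Each panel is a gene, each point a library, the horizontal bar the group mean and the whiskers ± SD (cut at 0 for Asns); groups run from shChREBP/L-G6pc-/- on the left to shSCR/L-G6pc+/+ on the right. Herpud1 lies between 436 and 771 CPM in shSCR/L-G6pc-/- livers and between 545 and 1573 CPM in shSCR/L-G6pc+/+ livers, and Trib3 in shSCR/L-G6pc-/- livers splits into 5 libraries at 10.6 to 13.3 CPM and 3 at 30.2 to 40.9 CPM.

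**Figure D3:**
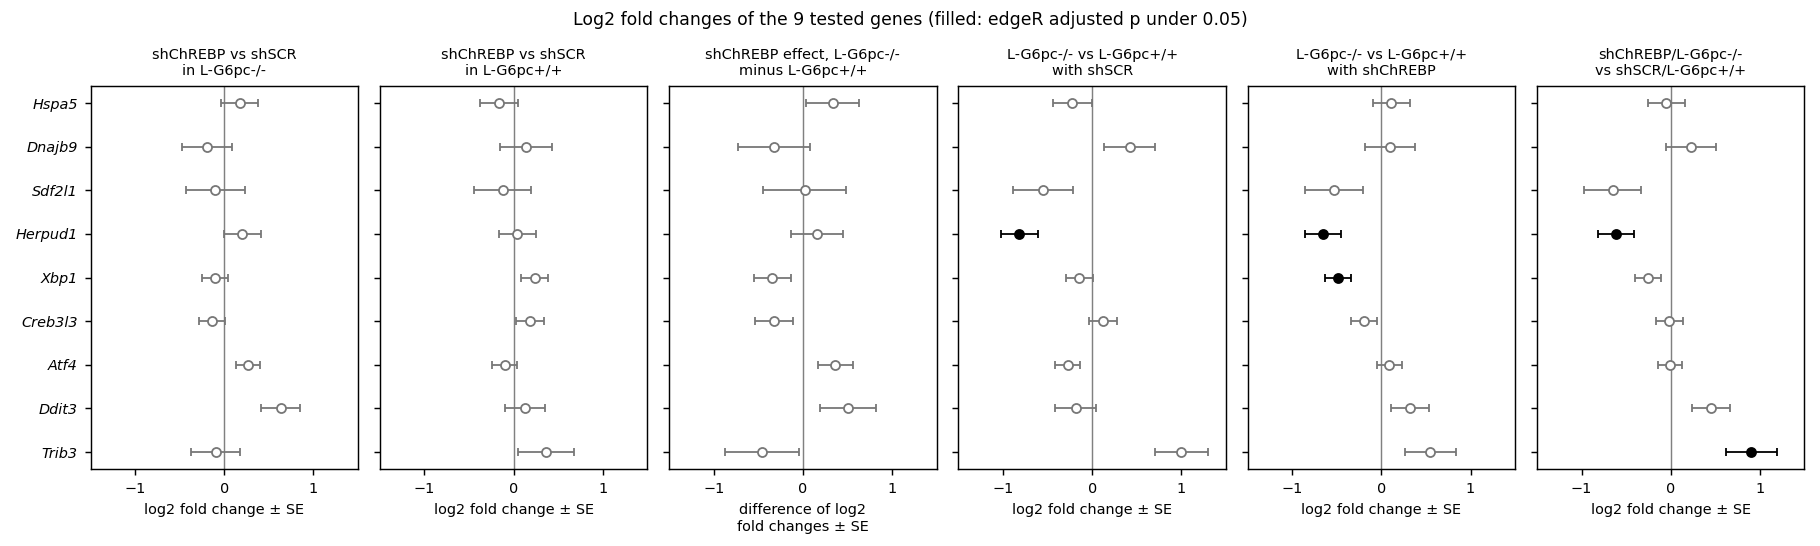
Log2 fold changes (points) ± SE of the 9 tested genes in 6 comparisons, from edgeR, with the first-named group as the numerator; filled points passed at an adjusted p under 0.05. The filled points are Herpud1 in the 3 comparisons of L-G6pc-/- with L-G6pc+/+ livers (-0.82, -0.66 and -0.61), Xbp1 with shChREBP (-0.49) and Trib3 between shChREBP/L-G6pc-/- and shSCR/L-G6pc+/+ (0.91).

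Herpud1 encodes an ER membrane protein that organises the ubiquitin ligase complex of ER-associated degradation, and it lies on chromosome 8 of GRCm38 from 94386438 to 94395377. With shSCR it was measured at 436, 666 and 771 CPM (lowest, median and highest of 8) in L-G6pc-/- livers, against 545, 1162 and 1573 CPM in L-G6pc+/+ livers. Of the 8 shSCR/L-G6pc+/+ libraries, 6 lay above the highest shSCR/L-G6pc-/- library, and the other 2 lay within its range. The shSCR/L-G6pc+/+ livers were themselves uneven, with s1, s2, s5 and s8 at 545 to 889 CPM and s3, s4, s6 and s7 at 1436 to 1573 CPM. The means were 631 ± 115 CPM (n = 8, SD) in shSCR/L-G6pc-/- and 1113 ± 432 CPM (n = 8, SD) in shSCR/L-G6pc+/+ livers. This gave a log2 fold change of -0.82 (SE 0.21, edgeR adjusted p = 0.0207), a fold of 0.568.

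With shChREBP, Herpud1 stood at 516, 600 and 1182 CPM in L-G6pc-/- livers, against 736, 1065 and 1736 CPM in L-G6pc+/+ livers. Of the 9 shChREBP/L-G6pc-/- libraries, 6 lay below the lowest shChREBP/L-G6pc+/+ library, while s28, s30 and s31 overlapped that group. This was a log2 fold change of -0.66 (SE 0.20, edgeR adjusted p = 0.0314). shChREBP/L-G6pc-/- livers were also below shSCR/L-G6pc+/+ livers, by a log2 fold change of -0.61 (SE 0.20, edgeR adjusted p = 0.0388). The hairpin itself was followed by log2 fold changes of 0.20 (SE 0.20, edgeR adjusted p = 0.611) in L-G6pc-/- and 0.042 (SE 0.21, edgeR adjusted p = 0.931) in L-G6pc+/+ livers, and the difference between these was 0.16 (SE 0.29, edgeR adjusted p = 0.878).

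The direction of the genotype difference in Herpud1 was kept in all 43 alternative fits of each comparison, but the calls were near the threshold. Under shSCR the call was lost without the shSCR/L-G6pc+/+ library s3 (-0.73, edgeR adjusted p = 0.0527) or s4 (-0.73, adjusted p = 0.0562) and without the shSCR/L-G6pc-/- library s21 (-0.75, adjusted p = 0.0531), and adjusted p-values ran from 0.0049 to 0.0796 over the alternatives. Under shChREBP it was lost in 11 of 43, on leaving out s12, s14, s25, s26, s27, s29, s32 or s33 singly among others, and without s29, s30, s32 and s33 the value was -0.50 (edgeR adjusted p = 0.207). Against shSCR/L-G6pc+/+ livers the call of shChREBP/L-G6pc-/- livers was lost in 16 of 43, and without those 4 libraries the value was -0.47 (edgeR adjusted p = 0.365). The single libraries concerned there were s3, s4, s6, s7, s25, s26, s27, s29, s30, s32 and s33, with adjusted p-values from edgeR of up to 0.104.

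Hspa5, which encodes BiP, the Hsp70 of the ER that both folds proteins and holds the stress sensors inactive, passed no test. It lies on chromosome 2 of GRCm38 from 34771970 to 34777547. It was measured at 2195, 3730 and 5086 CPM in shChREBP/L-G6pc-/- livers against 2316, 3177 and 3865 CPM in shSCR/L-G6pc-/- livers. In shChREBP/L-G6pc+/+ livers it was at 1832, 2597 and 6605 CPM against 2529, 3698 and 5934 CPM in shSCR/L-G6pc+/+ livers. Both pairs of groups overlapped over most of their range. The log2 fold changes were 0.17 (SE 0.21, edgeR adjusted p = 0.684) with shChREBP in L-G6pc-/- and -0.16 (SE 0.21, edgeR adjusted p = 0.708) with shChREBP in L-G6pc+/+ livers. For the genotype they were -0.22 (SE 0.21, edgeR adjusted p = 0.703) under shSCR and 0.11 (SE 0.21, edgeR adjusted p = 0.788) under shChREBP. The spread of Hspa5 was widest in shChREBP/L-G6pc+/+ livers, with a coefficient of variation of 54.4%, against 27.2% in shSCR/L-G6pc+/+ livers and 25.7% and 14.1% in shChREBP/L-G6pc-/- and shSCR/L-G6pc-/- livers. Libraries s14 and s12 were at 6605 and 5630 CPM there, and s11, s13 and s9 at 1832, 1958 and 2063 CPM.

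Dnajb9 (ERdj4), a J-domain co-chaperone of BiP that also holds IRE1 in check, was at 24.8, 39.6 and 64.1 CPM in shChREBP/L-G6pc-/- livers, 32.8, 41.8 and 78.6 CPM in shSCR/L-G6pc-/- livers, 10.9, 41.5 and 94.7 CPM in shChREBP/L-G6pc+/+ livers and 22.8, 31.7 and 72.2 CPM in shSCR/L-G6pc+/+ livers. Sdf2l1, which joins BiP and its co-chaperones in the ER lumen, was at 7.70, 14.4 and 30.1 CPM in shChREBP/L-G6pc-/- livers, 10.02, 19.97 and 31.3 CPM in shSCR/L-G6pc-/- livers, 6.32, 22.1 and 54.5 CPM in shChREBP/L-G6pc+/+ livers and 15.1, 26.01 and 61.6 CPM in shSCR/L-G6pc+/+ livers. All groups of both genes overlapped. Across the 5 group comparisons the log2 fold changes of Dnajb9 ran from -0.19 to 0.42 and those of Sdf2l1 from -0.65 to -0.10, and none passed. The most negative value of Sdf2l1 was that of shChREBP/L-G6pc-/- against shSCR/L-G6pc+/+ livers (-0.65, SE 0.32, edgeR adjusted p = 0.191), where its unadjusted p was 0.0471 and 5 of 9 shChREBP/L-G6pc-/- libraries lay below the lowest shSCR/L-G6pc+/+ library.

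Xbp1 encodes the transcription factor that IRE1 activates by splicing, and it lies on chromosome 11 of GRCm38 from 5520659 to 5525893. With shChREBP it was at 106, 163 and 206 CPM in L-G6pc-/- livers, against 104, 209 and 308 CPM in L-G6pc+/+ livers. All 9 shChREBP/L-G6pc-/- libraries lay below the median of the shChREBP/L-G6pc+/+ livers, and 4 of 8 shChREBP/L-G6pc+/+ libraries lay above the highest shChREBP/L-G6pc-/- library. The difference was -0.49 on the log2 scale (SE 0.15, edgeR adjusted p = 0.0256). The call was lost in 10 of 43 alternatives, among them those without s12, s15, s16, s26 or s29 (-0.45 to -0.41, edgeR adjusted p = 0.0502 to 0.0791) and without s29, s30, s32 and s33 (-0.40, edgeR adjusted p = 0.151). Without s9 and s13, 2 shChREBP/L-G6pc+/+ libraries that lay toward the same end of the first principal component, it was -0.63 (edgeR adjusted p = 0.0018). Under shSCR, Xbp1 was at 152, 174 and 193 CPM in L-G6pc-/- livers, against 154, 182 and 244 CPM in L-G6pc+/+ livers, with a log2 fold change of -0.15 (SE 0.15, edgeR adjusted p = 0.727). Whether the genotype difference changed with the hairpin is the same contrast as the difference between the shChREBP effects, which was -0.34 (SE 0.21, edgeR adjusted p = 0.54).

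Creb3l3 encodes CREB-H and was at 109, 156 and 210 CPM in shChREBP/L-G6pc-/- livers, 109, 180 and 240 CPM in shSCR/L-G6pc-/- livers, 112, 198 and 226 CPM in shChREBP/L-G6pc+/+ livers and 109, 163 and 178 CPM in shSCR/L-G6pc+/+ livers. The groups overlapped, and the log2 fold changes lay between -0.20 and 0.18 with adjusted p-values from edgeR of 0.438 to 0.969. Among 8 tested genes that CREB-H is known to control, 2 passed for the genotype under shSCR, 0 of them lower, beside 3.23% of all genes. Apoa4, an apolipoprotein of triglyceride-rich particles, was at 1347 ± 283 CPM (n = 8, SD) in shSCR/L-G6pc-/- livers against 153 ± 45.1 CPM (n = 8, SD) in shSCR/L-G6pc+/+ livers (log2 fold change 3.14, edgeR adjusted p = 2.85e-14). Apoc2, the cofactor of lipoprotein lipase, was at 423 ± 84.9 CPM (n = 8, SD) in L-G6pc-/- livers against 197 ± 31.4 CPM in L-G6pc+/+ livers (n = 8, SD; log2 fold change 1.10, edgeR adjusted p = 8.91e-08). Under shChREBP 5 of the 8 were higher and 1 lower in L-G6pc-/- livers, beside 11% of all genes, namely Apoa4 (2.78), Apoc2 (1.12), the hepatokine Fgf21 (2.09), Insig2 (0.84) and Apoa5 (1.02) on the log2 scale, and Apcs (-0.40, edgeR adjusted p = 0.027), an acute-phase pentraxin. The call of Apcs was lost without s29, s30, s32 and s33 (-0.36, edgeR adjusted p = 0.126), with libraries scaled by size alone (edgeR adjusted p = 0.0775) and in 6 of 33 fits that left out 1 library. That of Apoa5 was lost without s26 (edgeR adjusted p = 0.051). With shChREBP 2 of 8 passed in L-G6pc-/- livers (Apoa4 lower, Fgf21 higher), beside 7.56% of all genes, and 2 of 8 in L-G6pc+/+ livers (both lower), beside 5.39%. The call of Apoa4 in L-G6pc+/+ livers was lost in 3 of 33 fits that left out 1 library. Apoa4 fell with shChREBP in L-G6pc-/- livers (-1.06, edgeR adjusted p = 0.000124) and in L-G6pc+/+ livers (-0.70, edgeR adjusted p = 0.0215), and Insig2, which retains SREBP in the ER, fell in L-G6pc+/+ livers (-0.88, edgeR adjusted p = 0.00396). Several of these genes are also controlled by ChREBP, PPARα and other factors, and what moved them was not tested.

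Atf4 is regulated chiefly by translation, and its mRNA passed no test. It was at 216, 269 and 366 CPM in shChREBP/L-G6pc-/- livers, 179, 241 and 277 CPM in shSCR/L-G6pc-/- livers, 205, 262 and 340 CPM in shChREBP/L-G6pc+/+ livers and 181, 278 and 398 CPM in shSCR/L-G6pc+/+ livers. Atf4 differed by a log2 fold change of 0.26 with shChREBP in L-G6pc-/- (SE 0.14, edgeR adjusted p = 0.247) and -0.10 in L-G6pc+/+ livers (SE 0.14, edgeR adjusted p = 0.729). For the genotype under shSCR it was -0.27 (SE 0.14, edgeR adjusted p = 0.366), and all 8 shSCR/L-G6pc-/- libraries lay below the median of the shSCR/L-G6pc+/+ livers.

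Ddit3 encodes CHOP, the transcription factor of the late, death-promoting part of the response, and lies on chromosome 10 of GRCm38 from 127290774 to 127296288. It was at 28.8, 56.3 and 80.6 CPM in shChREBP/L-G6pc-/- livers against 23.4, 33.6 and 58.4 CPM in shSCR/L-G6pc-/- livers. Of the 9 shChREBP/L-G6pc-/- libraries, 8 lay above the median of the shSCR/L-G6pc-/- livers and 4 above their highest library. The mean was 56.3 ± 17.9 CPM (n = 9, SD) with shChREBP and 36.3 ± 12.1 CPM (n = 8, SD) with shSCR. The log2 fold change of 0.63 (SE 0.22) did not pass (edgeR adjusted p = 0.068). It passed in 7 of 43 alternatives, among them those without s14, s17, s19, s26 or s31 (0.63 to 0.76, edgeR adjusted p = 0.0284 to 0.0497) and those with scaling by library size alone (0.75, adjusted p = 0.0346). Without s29, s30, s32 and s33, whose Ddit3 values were 64.4, 80.6, 77.9 and 54.7 CPM, it was 0.34 (edgeR adjusted p = 0.659). In L-G6pc+/+ livers Ddit3 was at 28.2, 41.0 and 84.5 CPM with shChREBP against 23.7, 40.6 and 62.6 CPM with shSCR (log2 fold change 0.13, SE 0.22, edgeR adjusted p = 0.78). The shChREBP effect in L-G6pc-/- minus that in L-G6pc+/+ livers was 0.50 (SE 0.31, edgeR adjusted p = 0.543). Ddit3 overlaps Mars on the opposite strand, and the sources used here do not say if counting was stranded, so reads of the pair may not be separable. Over all libraries Ddit3 had 3342 counts and Mars 4286, and Mars had a log2 fold change of -0.10 (edgeR adjusted p = 0.641) in the comparison in which Ddit3 had 0.63.

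Trib3 encodes a pseudokinase that binds AKT and feeds back on ATF4 and CHOP, and lies on chromosome 2 of GRCm38 from 152337422 to 152344032. It was at 9.71, 18.8 and 28.4 CPM in shChREBP/L-G6pc-/- livers, against 3.35, 9.89 and 20.9 CPM in shSCR/L-G6pc+/+ livers. Of the 9 shChREBP/L-G6pc-/- libraries, 8 lay above the median of the shSCR/L-G6pc+/+ livers, and 3 above their highest library. Its log2 fold change was 0.91 (SE 0.29, edgeR adjusted p = 0.032), a fold of 1.87. The call was lost on leaving out s1, s4, s5, s6, s26, s30 or s33 singly (0.76 to 0.90, edgeR adjusted p = 0.0508 to 0.0799) and without s29, s30, s32 and s33 (0.78, edgeR adjusted p = 0.252). Under shSCR, Trib3 was at 10.6, 12.9 and 40.9 CPM in L-G6pc-/- livers against 3.35, 9.89 and 20.9 CPM in L-G6pc+/+ livers. The log2 fold change of 1.001 (SE 0.30) did not pass (edgeR adjusted p = 0.0573), but did with DESeq2 (0.99, adjusted p = 0.0301), with no filter on low counts (0.99, adjusted p = 0.0291) and without s3, s8, s17, s18, s19 or s22 (1.09 to 1.23, edgeR adjusted p = 0.0147 to 0.042). All 8 shSCR/L-G6pc-/- libraries lay above the median of the shSCR/L-G6pc+/+ livers. The shSCR/L-G6pc-/- livers were split, with s20, s23 and s24 at 31.5, 30.2 and 40.9 CPM and the other 5 at 10.6 to 13.3 CPM. The same 3 libraries had the lowest TMM factors of their group, 0.933, 0.928 and 0.921 against 0.968 to 1.03, and the part of library composition in their Trib3 values was not tested. The hairpin was followed by log2 fold changes of -0.10 (SE 0.27, edgeR adjusted p = 0.88) in L-G6pc-/- and 0.36 (SE 0.31, edgeR adjusted p = 0.538) in L-G6pc+/+ livers.

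Asns, asparagine synthetase, a target by which ATF4 activity is commonly read, was barely measured. It had 0 to 5 counts in a library, with a total of 16 counts in shChREBP/L-G6pc-/- livers, 6 in shSCR/L-G6pc-/- livers, 18 in shChREBP/L-G6pc+/+ livers and 16 in shSCR/L-G6pc+/+ livers. At this depth no difference was detectable, and in the fit without a filter on low counts its adjusted p-values from edgeR ran from 0.613 to 1.

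Over all 33 libraries, deviations of the ER-lumen genes from their group means were correlated, whereas Ddit3 and Trib3 passed no such test with each other. The r of the ER-lumen pairs was lower within shSCR/L-G6pc-/- livers, but differences in r between groups were not tested. Deviations of log2 CPM from the group means were correlated over the 33 libraries for 8 pairs, with permutation p-values within groups (100000 resamples, two-sided) adjusted over the 8. Hspa5 and Sdf2l1 had r = 0.78 (permutation p = 1e-05, the smallest that the resamples can give; adjusted 4e-05) and rho = 0.77 (permutation p = 1e-05, adjusted 8e-05). Without s14 and s12, the libraries farthest from the median of Hspa5, r was 0.71. Hspa5 and Dnajb9 had r = 0.78 (permutation p = 1e-05, adjusted 4e-05), rho = 0.76 (permutation p = 2e-05, adjusted 8e-05), and r = 0.72 without the same libraries. Hspa5 and Herpud1 had r = 0.60 (permutation p = 0.00032, adjusted 0.000853), rho = 0.62 (permutation p = 0.00011, adjusted 0.000293), and r = 0.52 without them. Xbp1 and Dnajb9 had r = 0.65 (permutation p = 0.0009, adjusted 0.0018) and rho = 0.62 (permutation p = 0.00055, adjusted 0.0011), with r = 0.50 without s9 and s29.

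In the groups taken singly, the r of Hspa5 with Sdf2l1 was 0.78 in shChREBP/L-G6pc-/-, 0.37 in shSCR/L-G6pc-/-, 0.87 in shChREBP/L-G6pc+/+ and 0.78 in shSCR/L-G6pc+/+ livers. That of Hspa5 with Dnajb9 was 0.78 in shChREBP/L-G6pc-/-, 0.27 in shSCR/L-G6pc-/-, 0.84 in shChREBP/L-G6pc+/+ and 0.87 in shSCR/L-G6pc+/+ livers. That of Hspa5 with Herpud1 was 0.51 in shChREBP/L-G6pc-/-, 0.010 in shSCR/L-G6pc-/-, 0.81 in shChREBP/L-G6pc+/+ and 0.74 in shSCR/L-G6pc+/+ livers. That of Xbp1 with Dnajb9 was 0.74 in shChREBP/L-G6pc-/-, 0.47 in shSCR/L-G6pc-/-, 0.68 in shChREBP/L-G6pc+/+ and 0.62 in shSCR/L-G6pc+/+ livers. Each of these values rests on 8 or 9 libraries, and no difference in r between groups was tested. Hspa5 also varied least in shSCR/L-G6pc-/- livers. Ddit3 and Trib3, both targets of ATF4, had r = -0.23 (permutation p = 0.198, adjusted 0.226) and rho = -0.23 (permutation p = 0.21, adjusted 0.24), with r = -0.32 without s14 and s31. The 3 pairs with Asns rest on 0 to 5 counts and are not read: r was -0.38 with Trib3, 0.51 with Atf4 and -0.082 with Hspa5 (permutation p = 0.0444, 0.00448 and 0.669, adjusted 0.0591, 0.00717 and 0.669), rho was -0.34, 0.50 and -0.12 (permutation p = 0.0638, 0.00468 and 0.525, adjusted 0.0851, 0.00749 and 0.525), and r without the 2 farthest libraries was -0.29, 0.40 and -0.25. The genes of a pair share their libraries, depth and scaling.

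**Figure D4:**
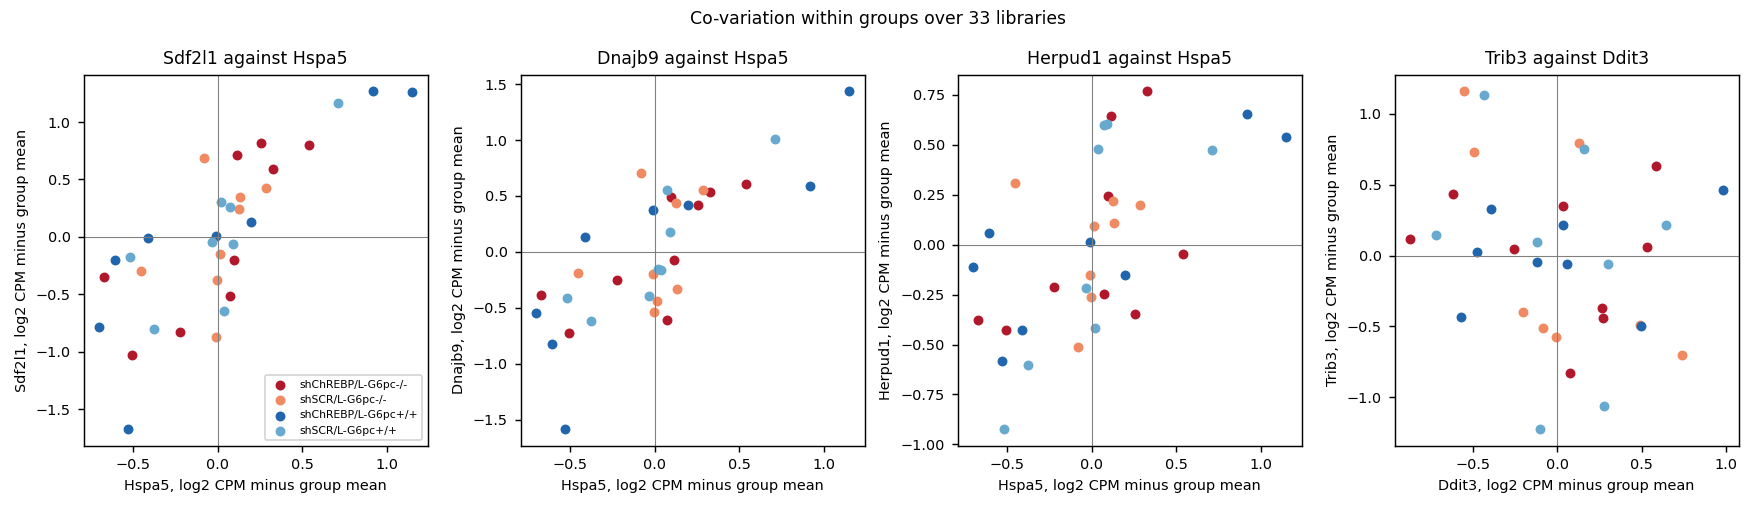
Deviations of log2 CPM from the group mean in the 33 libraries (points, coloured by group) for Sdf2l1, Dnajb9 and Herpud1 against Hspa5, and for Trib3 against Ddit3. The first 3 panels rise from lower left to upper right (r = 0.78, 0.78 and 0.60) and the last does not (r = -0.23).

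Beyond the 10 genes, a few genes of ER folding and degradation passed with shChREBP and 0 in edgeR between the genotypes under one hairpin. Of 23 ER chaperones and folding enzymes, 0 were higher and 2 lower (8.7%) with shChREBP in L-G6pc-/- livers, beside 7.56% of all genes (the disulfide isomerase P4hb, -0.28, adjusted p = 0.0217; the lectin chaperone Canx, -0.29, adjusted p = 0.0263, both from edgeR), and 1 was lower (4.35%) in L-G6pc+/+ livers, beside 5.39% (the BiP exchange factor Sil1, -0.47, edgeR adjusted p = 0.00219). For the genotype 0 of 23 passed in edgeR under either hairpin, beside 3.23% of all genes under shSCR and 11% under shChREBP. Each time 5 had an unadjusted p under 0.05, beside 14.6% of all genes under shSCR and 25.6% under shChREBP. The other tools called 0 under shSCR, and under shChREBP limma on the deposited table called 1 (Ero1l) and the others 0. Of 16 tested genes of ER-associated degradation, 1 was higher (Ube2j1, 0.30, adjusted p = 0.0439) and 2 were lower (Sel1l, the partner of the ligase Hrd1, -0.41, adjusted p = 0.0315; Derl2, -0.28, adjusted p = 0.0362) with shChREBP in L-G6pc-/- livers, all from edgeR, which is 18.8% of the list beside 7.56% of all genes. For the genotype under shSCR, the comparison in which Herpud1 fell, 0 of 16 passed, beside 3.23%, and 0 by each other tool. At an unadjusted p under 0.05 there were 4, beside 14.6% of all genes. Sel1l was lower with shChREBP in L-G6pc+/+ livers too (-0.45, edgeR adjusted p = 0.0288), where Nploc4 was higher (0.38, adjusted p = 0.0467), and 2 of 16 passed (12.5%, beside 5.39%). Of fits that left out 1 library, 22 of 33 lost the call of Nploc4, 11 that of Ube2j1, 7 and 6 those of Sel1l in L-G6pc-/- and L-G6pc+/+ livers, 6 that of Derl2, 3 that of Canx and 2 that of P4hb. Scaling by library size alone lost that of Nploc4 too (edgeR adjusted p = 0.0677). Without s29, s30, s32 and s33, 0 of the 5 calls in the chaperone and degradation lists remained in L-G6pc-/- livers. Over all genes, calls in this comparison fell from 770 to 106 without those 4 libraries. With libraries scaled by size alone, P4hb, Canx, Sel1l and Derl2 did not pass and Ube2j1 did; that scaling put the median of all genes at 0.11 on the log2 scale in this comparison, and 75.8% of all called genes were then higher, beside 44.0% with TMM.

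In ER translocation and exit, 4 of 22 tested genes were lower and 0 higher with shChREBP in L-G6pc-/- livers, beside 7.56% of all genes. Sec62, a subunit of the translocation machinery, was at 259 ± 47.1 CPM (n = 9, SD) in shChREBP/L-G6pc-/- livers against 455 ± 40.8 CPM (n = 8, SD) in shSCR/L-G6pc-/- livers (log2 fold change -0.81, edgeR adjusted p = 1.21e-06), and at 260 ± 42.4 CPM (n = 8, SD) in shChREBP/L-G6pc+/+ livers against 458 ± 23.3 CPM (n = 8, SD) in shSCR/L-G6pc+/+ livers (-0.82, edgeR adjusted p = 4.38e-06). It was lower in all fits that left out 1 library and without s29, s30, s32 and s33 (-0.62, edgeR adjusted p = 0.00102 in L-G6pc-/-). The other 3 were Sec11c (-0.41), Tram1 (-0.43) and Lman1 (-0.33), whose calls were lost without those 4 libraries and also with libraries scaled by size alone (edgeR adjusted p = 0.0606, 0.0663 and 0.143), where Sec62 passed (edgeR adjusted p = 1.5e-05). The call of Lman1 was lost in 6 of 33 fits that left out 1 library. In L-G6pc+/+ livers Sec61a1, the channel itself, also fell with shChREBP (-0.56, edgeR adjusted p = 0.00122). There 2 of 22 passed, beside 5.39% of all genes. Under shChREBP it was the only one of the 22 that passed for the genotype (0.39, edgeR adjusted p = 0.00742), beside 11%. Of 14 tested sensors and switches, 1 passed for the genotype under shSCR (7.14%, beside 3.23% of all genes). This was Ern1, which encodes IRE1, at 59.1 ± 13.0 CPM (n = 8, SD) in shSCR/L-G6pc-/- livers against 39.6 ± 9.24 CPM (n = 8, SD) in shSCR/L-G6pc+/+ livers (0.57, edgeR adjusted p = 0.0135). With shChREBP it was lower in L-G6pc-/- livers, at 44.0 ± 5.75 CPM (n = 9, SD; -0.43, edgeR adjusted p = 0.0469), again 1 of 14, beside 7.56%. That call was lost in 19 of 33 fits that left out 1 library, without s29, s30, s32 and s33 (-0.37, edgeR adjusted p = 0.347) and with libraries scaled by size alone (edgeR adjusted p = 0.157).

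The mRNA of ATF4 targets does not show ATF4 activity itself, and Fgf21, for one, is also in the list of CREB-H targets. What moved the genes of this list was not tested. Of its 31 genes, 23 were tested. Of these, 3 were higher and 0 lower with shChREBP in L-G6pc-/- livers, beside 7.56% of all genes, and 19 of 23 log2 fold changes were positive, with a median of 0.23 beside 0.0063 over all genes. Fgf21 was at 15.6 ± 9.54 CPM (n = 9, SD) in shChREBP/L-G6pc-/- livers against 5.30 ± 3.66 CPM (n = 8, SD) in shSCR/L-G6pc-/- livers (1.54, edgeR adjusted p = 0.0142). Sesn2, which restrains mTORC1, was at 18.6 ± 5.98 CPM (n = 9, SD) with shChREBP against 11.7 ± 4.55 CPM with shSCR (n = 8, SD; 0.67, edgeR adjusted p = 0.0285), and Slc3a2, the heavy chain of amino acid exchangers, was at 40.4 ± 15.2 CPM (n = 9, SD) with shChREBP against 27.1 ± 6.75 CPM with shSCR (n = 8, SD; 0.59, edgeR adjusted p = 0.0343). Without s29, s30, s32 and s33 none of the 3 passed (1.30, 0.34 and 0.20, with edgeR adjusted p = 0.19, 0.594 and 0.722). Over all genes, calls fell from 770 to 106 in that fit. The calls of Sesn2 and Slc3a2 were each lost in 7 of 33 fits that left out 1 library. Under shSCR, 0 of 23 passed for the genotype in edgeR, beside 3.23% of all genes, and 0 by each other tool. At an unadjusted p under 0.05 there were 2, beside 14.6% of all genes, and the median was 0.017. For the genotype under shChREBP, 5 of 23 were higher and 0 lower, beside 11% of all genes, with a median of 0.24 beside -0.014. Of the 5 calls 3 remained without s29, s30, s32 and s33 (those of Sesn2 and Eif4ebp1 were lost, edgeR adjusted p = 0.0531 and 0.119; that of Eif4ebp1 also in 6 of 33 fits that left out 1 library). The 5 genes were Fgf21 (2.09, adjusted p = 0.00137), Sesn2 (0.99, adjusted p = 0.00118), Atf5 (0.63, adjusted p = 0.00273), Eif4ebp1 (0.59, adjusted p = 0.0348) and Ddit4 (1.76, adjusted p = 0.0256), all from edgeR. The call of Ddit4 rested on s31 at 792 CPM, without which it was 0.65 (edgeR adjusted p = 0.296). It was also lost without s15 or s16 (edgeR adjusted p = 0.0538 and 0.0593). In L-G6pc+/+ livers shChREBP was followed by 0 higher and 1 lower of 23 (4.35%, beside 5.39% of all genes), Gpt2 (-0.57, edgeR adjusted p = 0.0319), a call lost in 8 of 33 fits that left out 1 library. There 14 of 23 log2 fold changes were positive, with a median of 0.19 beside 0.026 over all genes. The difference between the shChREBP effects passed for 0 of 23 in edgeR, with 4 at an unadjusted p under 0.05 and 0 by each other tool.

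Among the 17 cytosolic aminoacyl-tRNA synthetases, which ATF4 also induces, 1 was higher (Gars, 0.40, adjusted p = 0.0384) and 1 lower (Tars, -0.47, adjusted p = 0.001) with shChREBP in L-G6pc-/- livers, both from edgeR (11.8%, beside 7.56% of all genes). In L-G6pc+/+ livers 3 of 17 passed (17.6%, beside 5.39%), with Cars higher (0.52, adjusted p = 0.0399) and Tars (-0.45, adjusted p = 0.00416) and Eprs (-0.33, adjusted p = 0.0279) lower, all from edgeR. Fits that left out 1 library lost the call of Cars in 9 of 33, that of Eprs in 6 and that of Gars in L-G6pc-/- livers in 9. Under shSCR 1 of 17 passed for the genotype, Tars (0.45, edgeR adjusted p = 0.00246), beside 3.23%. Under shChREBP 4 of 17 were higher and 0 lower in L-G6pc-/- than in L-G6pc+/+ livers, beside 11% of all genes, with log2 fold changes of 0.44 for Tars, 0.44 for Nars, 0.60 for Vars and 0.40 for Gars (edgeR adjusted p = 0.00159, 0.0035, 0.0253 and 0.0326). Of the 4 calls 2, those of Tars and Nars, remained without s29, s30, s32 and s33. Tars passed in all 4 comparisons of genotype or hairpin alone, higher in L-G6pc-/- and lower with shChREBP, at 423 ± 67.4 CPM (n = 9, SD) in shChREBP/L-G6pc-/-, 585 ± 62.5 CPM (n = 8, SD) in shSCR/L-G6pc-/-, 312 ± 25.5 CPM (n = 8, SD) in shChREBP/L-G6pc+/+ and 427 ± 49.2 CPM (n = 8, SD) in shSCR/L-G6pc+/+ livers. Without s29, s30, s32 and s33 the shChREBP difference of Tars in L-G6pc-/- livers was -0.30 (edgeR adjusted p = 0.15), and Gars had log2 fold changes of 0.083 with shChREBP in L-G6pc-/- livers and 0.078 for the genotype under shChREBP (edgeR adjusted p = 0.858 and 0.723), and Vars 0.52 for the genotype under shChREBP (edgeR adjusted p = 0.114).

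Between shChREBP/L-G6pc-/- and shSCR/L-G6pc+/+ livers, 4 of 23 ATF4 targets were higher and 0 lower, beside 13.2% of all genes. They were Sesn2 (1.21, edgeR adjusted p = 6.5e-05), Fgf21 (2.39, adjusted p = 0.000196), Atf5 (0.52, adjusted p = 0.0102) and the mitochondrial folate enzyme Mthfd2 (1.21, adjusted p = 0.0271), and the calls of Sesn2 and Fgf21 remained without s29, s30, s32 and s33. In the folding, degradation and translocation lists the called genes of this comparison were all lower, namely Sil1 (-0.27), Fkbp2 (-0.47), Sel1l (-0.45) and Sec62 (-0.82), of which only Sec62 kept its call without those libraries. They were 2 of 23, 1 of 16 and 1 of 22 genes of their lists, each a smaller share than the 13.2% of all genes. Among sensors 1 of 14 passed, Eif2ak2, the eIF2α kinase PKR, at 19.03 ± 3.92 CPM (n = 9, SD) in shChREBP/L-G6pc-/- livers against 12.3 ± 3.57 CPM (n = 8, SD) in shSCR/L-G6pc+/+ livers (0.61, edgeR adjusted p = 0.0226). Its call was lost without s29, s30, s32 and s33 (0.48, edgeR adjusted p = 0.281) and without s7 or s8. Of 17 synthetases 2 passed, Vars (0.65, edgeR adjusted p = 0.00987) and Gars (0.43, edgeR adjusted p = 0.0146). Of the 2 calls 0 remained without those 4 libraries. Of 8 CREB-H targets 4 passed, Apoa4 (2.08, adjusted p = 5.22e-10), Apoc2 (1.30, adjusted p = 9.07e-10) and Fgf21 higher and Crp, the pentraxin C-reactive protein, lower (-0.33, adjusted p = 0.0306), all from edgeR. The call of Crp was lost without the 4 libraries (-0.18, edgeR adjusted p = 0.468) and with libraries scaled by size alone (edgeR adjusted p = 0.0954). Fits that left out 1 library lost the call of Fkbp2 in 10 of 33, those of Sil1, Mthfd2 and Crp in 6 each and that of Gars in 1. Where a list had no call, the gene with the smallest p was Pdia5 (0.34, edgeR adjusted p = 0.198) among chaperones, Derl2 (0.25, adjusted p = 0.124) in degradation, Sec61b (0.43, adjusted p = 0.128) in translocation and Atf3 (-1.80, adjusted p = 0.135) among ATF4 targets for the genotype under shSCR. Under shChREBP it was Ero1l (0.55, edgeR adjusted p = 0.0558), Ufd1 (0.26, adjusted p = 0.188) and, among sensors, Eif2ak2 (0.56, adjusted p = 0.0506), and with shChREBP in L-G6pc+/+ livers the sensor Atf6b (0.20, adjusted p = 0.375). For the difference between the shChREBP effects it was Sil1 (0.38, edgeR adjusted p = 0.204), Ube2j1 (0.23, adjusted p = 0.52), Sec61a1 (0.62, adjusted p = 0.0556), Ern1 (-0.52, adjusted p = 0.277), Ddit4 (1.93, adjusted p = 0.285), Eprs (0.49, adjusted p = 0.117) and Insig2 (0.61, adjusted p = 0.322), of which Sec61a1 passed with DESeq2.

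**Figure D5:**
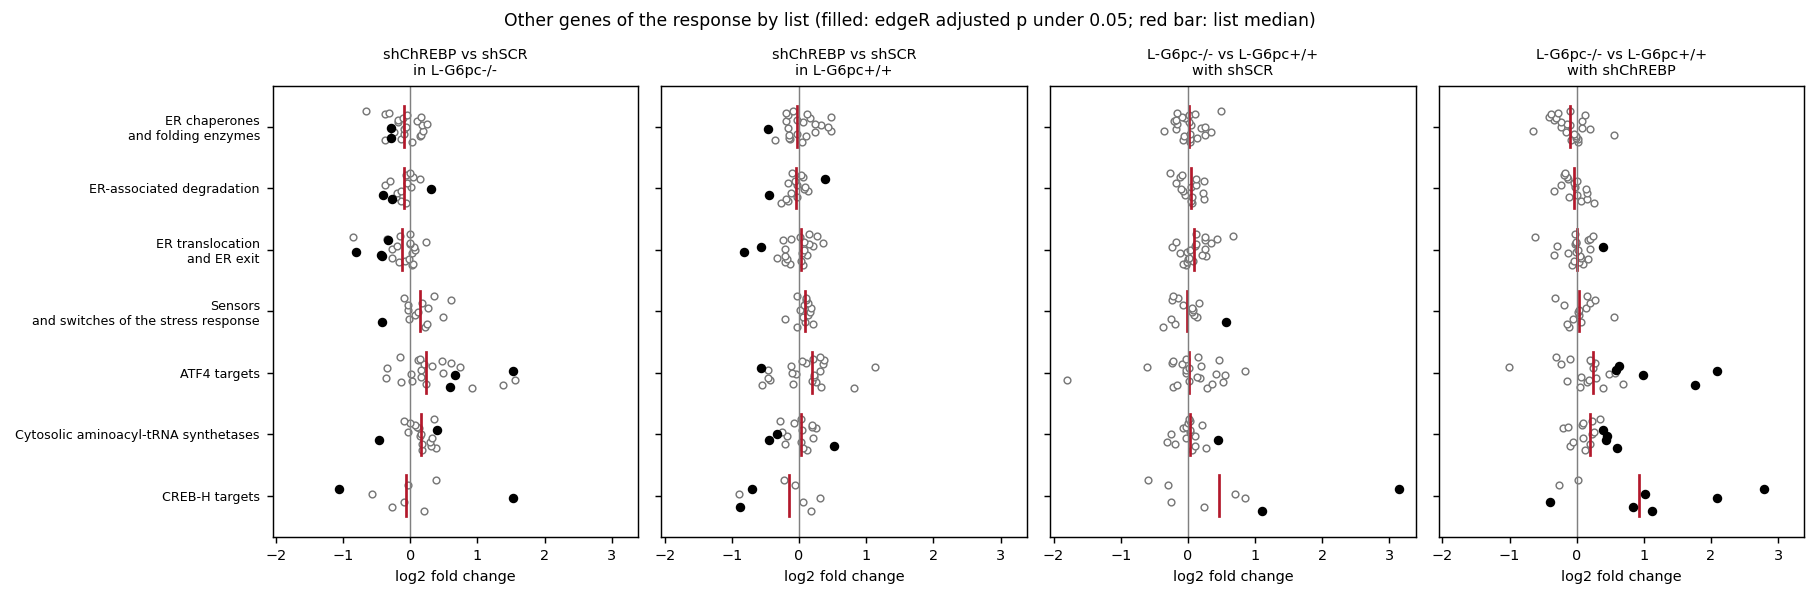
Log2 fold changes of the other genes of the response (points) by list in 4 comparisons, from edgeR; filled points passed at an adjusted p under 0.05 and the red bar is the list median. In the ATF4 targets the median is 0.23 with shChREBP in L-G6pc-/- and 0.19 with shChREBP in L-G6pc+/+. It is 0.24 for the genotype under shChREBP and 0.017 for the genotype under shSCR. In the chaperone list the 4 medians lie between -0.10 and 0.014.

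Cell type markers moved alongside some of these comparisons. Of 10 hepatocyte markers, 4 were lower with shChREBP in L-G6pc-/- livers (Alb, Ttr, Serpina1a and Fgb), beside 7.56% of all genes, with summed levels of 13079 to 24457 CPM in shChREBP/L-G6pc-/- livers against 19508 to 27797 CPM in shSCR/L-G6pc-/- livers. Of 10 Kupffer cell and macrophage markers, 3 were higher (C1qa, Clec4f and C1qc), with sums of 1495 to 2357 CPM with shChREBP against 939 to 2243 CPM with shSCR. Fits that left out 1 library lost the calls of Serpina1a and Fgb in 7 of 33 each and that of C1qc in 5. Those of Alb, Ttr, C1qa and Clec4f were kept in all 33. Between the genotypes under shSCR, where Herpud1 fell, 1 of 10 hepatocyte markers passed (Alb, lower), beside 3.23% of all genes. Their sums were 19508 to 27797 CPM in shSCR/L-G6pc-/- against 27627 to 34311 CPM in shSCR/L-G6pc+/+ livers. Of 10 Kupffer markers 0 passed in edgeR and 0 by each other tool, with 1 at an unadjusted p under 0.05, beside 14.6% of all genes. Kupffer sums were 939 to 2243 CPM in L-G6pc-/- against 989 to 1723 CPM in L-G6pc+/+ livers. Between the genotypes under shChREBP, where Herpud1 and Xbp1 fell, 3 of 10 hepatocyte markers were lower (Alb, Serpina1a and Cyp2e1), beside 11% of all genes. There 0 of 10 Kupffer markers passed in edgeR and 0 by each other tool, with 3 at an unadjusted p under 0.05, beside 25.6% of all genes. Of 8 stellate markers 1 passed (Col1a1, higher), while 4 of 8 log2 fold changes were positive and the list median was -0.017. The call of Col1a1 was lost in 11 of 33 fits that left out 1 library. Hepatocyte sums were 13079 to 24457 CPM in shChREBP/L-G6pc-/- against 23089 to 36074 CPM in shChREBP/L-G6pc+/+ livers. Between shChREBP/L-G6pc-/- and shSCR/L-G6pc+/+ livers, where Trib3 was higher, 5 of 10 hepatocyte markers were lower (Alb, Serpina1a, Ttr, Cyp2e1 and Apoa1). There 3 of 10 Kupffer markers (Clec4f, C1qc and Cd5l) were higher, beside 13.2% of all genes. Of these hepatocyte and Kupffer calls, fits that left out 1 library lost that of Apoa1 in 7 of 33 and that of Cyp2e1 in 4, and no other. Only 2 of 8 cholangiocyte markers were tested, of which Spp1 was higher (0.96) and Sox9 did not pass (0.076). Stellate markers summed to 363 to 565, 317 to 443, 377 to 578 and 353 to 452 CPM in the shChREBP and the shSCR livers of L-G6pc-/- mice and then in the shChREBP and the shSCR livers of L-G6pc+/+ mice, and sinusoidal endothelial markers to 319 to 392, 261 to 365, 341 to 510 and 307 to 406 CPM. Of 8 endothelial markers 1 passed with shChREBP in L-G6pc-/- livers (Pecam1, higher), beside 7.56% of all genes. In L-G6pc+/+ livers it was also 1 of 8 (Fcgr2b, higher), beside 5.39%. These calls were lost in 7 and 1 of 33 fits that left out 1 library. Of 8 stellate markers 0 passed with the hairpin in either genotype. Cholangiocyte markers summed to 19.1 to 83.3 CPM over all libraries, and plasma and B cell markers to 13.4 to 167 CPM. Of the acinar genes, which are rich in ER, 5 of 12 were not analysed here, and Cela1, which liver also expresses, was the only 1 that passed the filter, while Prss2, Cela2a and Clps had means of 0 to 0.0571 CPM in every group. Cela1 was lower in L-G6pc-/- livers under shSCR (log2 fold change -1.18), a call kept in all 33 fits that left out 1 library. It was also lower in shChREBP/L-G6pc-/- than in shSCR/L-G6pc+/+ livers (-0.58), a call lost in 11 of 33 such fits, and passed in no other comparison. In bulk RNA, fewer cells of a type and less RNA per cell cannot be told apart, and the part of these shifts in the results above was not tested.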

How the data were processed

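Liver RNA of 33 libraries in 4 groups was measured by 3' QuantSeq. The authors aligned reads with HISAT, used SAMtools, obtained per-gene counts with HTSeq on GRCm38, and deposited these raw counts; versions are not given in the sources used here. They also deposited a voom-normalized table (unit: signal, limma), which proved linear where the plan allowed for log2 values, so its log2 was taken for an alternative fit. Columns were matched to samples by name, with 0 left unmapped.

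The analysis used edgeR 4.0.16, DESeq2 1.42.0 and limma 3.58.1 (R 4.3.3), and tables in Python 3.11.15. filterByExpr (minimum count 10, minimum total 15) kept 10179 of 25988 genes. All 4 groups were fitted together by edgeR's quasi-likelihood model with TMM scaling, two-sided, with Benjamini-Hochberg adjustment over all tested genes and a threshold of 0.05. CPM are TMM-scaled, and log2 CPM used a prior count of 2. The script was tested on simulated data. Gene coordinates are of GENCODE M21 (GRCm38), and promoters of RefSeq (GRCm38.p6).

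The 10 genes, the gene lists (ER chaperones and folding enzymes, ER-associated degradation, ER translocation and exit, sensors and switches, ATF4 targets, aminoacyl-tRNA synthetases, CREB-H targets, and cell type markers) and the left-out libraries were chosen with earlier results of these data known. The text names all 10 genes, Mlxipl, and of each list up to 4 called genes with the smallest p in a comparison, the gene with the smallest p where none was called, and any gene that a count of 5 or fewer singles out. Alternatives were other scalings, no filter, DESeq2, limma-voom, limma on the deposited values, only the compared groups, each library left out in turn, and fits that dropped s9 and s13, Gm42418 (the gene with the most counts), or s29, s30, s32 and s33. The genotype comparison under shChREBP was added after the data were seen.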

Additional observations from a re-analysis of the deposited data

Results flagged for a closer look

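Among 40 combinations of gene and group, 3 held a library far from the rest of its group by Dixon's criterion, which by chance marks about 1 combination in 20. All 3 were in shSCR/L-G6pc+/+ livers. Hspa5 was at 5934 CPM in library s7, and the next highest library of the group was at 3852 CPM. Sdf2l1 was at 61.6 CPM in the same library, and the next highest was at 33.6 CPM. Creb3l3 was at 109 CPM in library s6, and the next lowest was at 156 CPM. Library s7 was also the highest of its group in Dnajb9 (72.2 CPM) and Ddit3 (62.6 CPM).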

How the results depend on the processing

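The number of the 9 genes that passed depended on the processing in 4 of 6 comparisons. In L-G6pc-/- livers shChREBP gave 0, and 1 with scaling by library size or with no filter on low counts (Ddit3 each time; 0 to 1 over the fits leaving out 1 library). For the genotype under shSCR it was 1, and 2 with no filter or with DESeq2 and 0 with limma on the deposited values (0 to 2 leaving out 1 library). For the genotype under shChREBP it was 2, and 1 with limma-voom or only the compared groups, and 0 with scaling by library size, limma on the deposited values or without s29, s30, s32 and s33 (0 to 2 leaving out 1 library). For shChREBP/L-G6pc-/- against shSCR/L-G6pc+/+ it was 2, and 1 with scaling by library size, limma-voom, limma on the deposited values or only the compared groups, and 0 without s29, s30, s32 and s33 (0 to 2 leaving out 1 library). It stayed at 0 in the other 2 comparisons under every alternative run.

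No gene of the 9 changed direction in a comparison in which it had passed. Log2 fold changes near 0 did in others. With scaling by library size Trib3 and Sdf2l1 in L-G6pc-/- (shChREBP) came to 0.025 and 0.0030, and Hspa5, Atf4 and Creb3l3 in shChREBP/L-G6pc-/- against shSCR/L-G6pc+/+ to 0.035, 0.066 and 0.054. Trib3 in L-G6pc-/- was 0.049 with limma-voom and 0.0089 with limma on the deposited values, under which Dnajb9 in L-G6pc+/+ was -0.047. Without s29, s30, s32 and s33, Dnajb9 and Sdf2l1 in L-G6pc-/- were 0.0035 and 0.34, and Hspa5 and Creb3l3 in shChREBP/L-G6pc-/- against shSCR/L-G6pc+/+ 0.075 and 0.12. Without s9 and s13, Hspa5 and Sdf2l1 in L-G6pc+/+ were 0.016 and 0.10, the difference for Sdf2l1 -0.20, and Hspa5 and Dnajb9 for the genotype under shChREBP -0.065 and -0.17. Leaving out 1 library, shChREBP in L-G6pc-/- gave -0.19 to 0.11 for Trib3 and -0.23 to 0.0082 for Sdf2l1. In L-G6pc+/+ it gave -0.059 to 0.23 for Ddit3, -0.071 to 0.13 for Herpud1, -0.16 to 0.33 for Dnajb9 and -0.35 to 0.11 for Sdf2l1. The difference for Sdf2l1 was -0.21 to 0.25, shChREBP/L-G6pc-/- against shSCR/L-G6pc+/+ gave -0.12 to 0.082 for Hspa5, -0.082 to 0.077 for Atf4 and -0.088 to 0.044 for Creb3l3, and the genotype under shChREBP gave -0.046 to 0.39 for Dnajb9. The cause was not tested. No paired analysis was possible because the groups share no replicate numbers. Scaling by library size also moved the share of higher genes among all called: to 57.6% from 68.1% for the genotype under shSCR, to 74.0% from 55.6% under shChREBP, to 68.2% from 51.9% for shChREBP/L-G6pc-/- against shSCR/L-G6pc+/+ and to 90.9% from 75% for the difference of shChREBP effects. Depth limited Asns, with 0 to 5 counts in a library.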

Other observations

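2 genes of the ATF4 list stood out in single groups or libraries and were chosen after their values were seen. Gdf15, a stress-induced hormone, was at 514, 906 and 1975 CPM (lowest, median and highest) in shChREBP/L-G6pc-/- livers, 146, 556 and 1453 CPM in shSCR/L-G6pc-/- livers, 1075, 2361 and 2541 CPM in shChREBP/L-G6pc+/+ livers and 220, 1051 and 1592 CPM in shSCR/L-G6pc+/+ livers. Its log2 fold change with shChREBP in L-G6pc+/+ livers, 1.13 (SE 0.37), did not pass (edgeR adjusted p = 0.0608). Ddit4, an inhibitor of mTORC1, was at 792 CPM in the shChREBP/L-G6pc-/- library s31, and the next highest of that group was at 133 CPM.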
